A study of Mus musculus with 34 samples.

Results

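The genes described here encode inflammatory cytokines, their receptor and inhibitor, and genes they induce in inflamed tissue: Il1b, Tnf, Tnfrsf1a, Nfkbia, Icam1, Vcam1 and Csf1. They are the 7 genes of this theme that had a probe with a single annotated symbol in both deposited value tables, out of 637 genes named in both. Each had exactly 1 probe per table, so no second probe measured any of them. RNA of 2 muscles, diaphragm and hindlimb, was hybridised to 34 arrays with 2 colours each. The mice were BL10, the background strain with normal dystrophin, or mdx, which carry a mutation of the dystrophin gene in every cell and are the usual mouse model of Duchenne muscular dystrophy. The 8 groups were each muscle of each strain, untreated or given L-arginine, the substrate of the nitric oxide synthases. Each group had 1 array at each of 4 ages (3, 5, 9 and 12 weeks), and the untreated mdx groups had 2 arrays at 12 weeks (Sample 1 and Sample 2). The labels used here do not give the dose, route and length of treatment, nor whether arrays came from separate animals or pools. The p-values therefore measure how these arrays vary among themselves, and that variation may be technical. Dystrophin had no probe with its own single name, so the strain labels had no check by that gene.

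Each deposited value was read as a linear ratio of both channels of an array. By its labels, one channel held RNA of 12-week mice and the other RNA of the same strain at the age in the title. The direction, named age over 12-week RNA, is likely only, and is not stated in the labels. Read the other way, every log2 ratio and difference below turns sign, while correlations keep theirs. A ratio of 1 stands for equal signal in both channels, and differences between groups are differences in log2 ratio. Since BL10 and mdx arrays each have 12-week RNA of their own strain, a strain difference compares distances from 12 weeks and not levels in BL10 and mdx muscle. All untreated arrays lie in one table and all L-arginine arrays in the other, so what the treatment did and what sets the tables apart cannot be told apart. In muscle RNA, fewer cells of a type and less RNA per cell cannot be told apart either.

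Interleukin-1 beta (Il1b) and tumour necrosis factor (Tnf) are secreted mainly by macrophages and other immune cells, and bind receptors on nearby cells, among them the TNF receptor encoded by Tnfrsf1a. These receptors lead to the breakdown of I kappa B alpha (Nfkbia), which holds the transcription factor NF-kB in the cytoplasm. Freed NF-kB enters the nucleus and induces Nfkbia itself, as a brake, and the endothelial adhesion molecules Icam1 and Vcam1, through which leukocytes leave the blood. Csf1 encodes the growth factor on which macrophages depend. Dystrophin-deficient muscle fibres break and regenerate in cycles with macrophage infiltration, and in mdx mice the diaphragm is known as the muscle with the most lasting damage.

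The promoters of members on which the results below turn, Il1b, Tnf, Nfkbia and Csf1, show how the letters near their start sites differ. The 100 bases before the start site of Il1b and Tnf each hold a TATA box, and those of Nfkbia hold a match to the kB consensus, the sequence family bound by NF-kB. The stretch of Csf1 lies from -200 to -101 and holds its kB match. All were taken from RefSeq on build GRCm38.p6, lie on the minus strand and are written in the direction of transcription, with the motif in capitals. The Il1b stretch is chr2:129371140-129371239, that of Tnf chr17:35202008-35202107, that of Nfkbia chr12:55492648-55492747 and that of Csf1 chr3:107760570-107760669.
Il1b: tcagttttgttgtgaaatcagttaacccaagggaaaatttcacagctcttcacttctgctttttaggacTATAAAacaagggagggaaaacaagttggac
Tnf: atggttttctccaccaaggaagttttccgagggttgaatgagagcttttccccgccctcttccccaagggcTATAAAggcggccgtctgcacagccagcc
Nfkbia: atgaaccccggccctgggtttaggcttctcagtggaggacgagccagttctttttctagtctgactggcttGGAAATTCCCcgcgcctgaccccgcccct
Csf1: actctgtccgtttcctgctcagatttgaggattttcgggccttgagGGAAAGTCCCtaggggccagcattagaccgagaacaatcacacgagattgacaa
Of the 7 genes, 6 had a promoter in the table used, Vcam1 being the exception. The 250 bases upstream were searched on both strands for the kB consensus and for TATAAA, which share no letters in these matches. A kB match was found for Nfkbia (-29 to -20) and Csf1 (-154 to -145), and in 5.00% of 32851 mouse promoters. TATAAA was found for Il1b (-31 to -26) and Tnf (-29 to -24), and in 12.4% of those promoters. A match is a string of letters and not a measured binding site.

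Of 34 arrays, 3 stood apart in the untreated table. The BL10 hindlimb arrays at 3 and 12 weeks held 225 and 128 ratios of 0 or below, and the BL10 diaphragm array at 3 weeks held 168. The other 31 arrays held 0 to 53. In the same order, the 3 arrays had median ratios of 0.73, 0.78 and 0.85 and SDs of log2 ratio of 1.15, 1.03 and 1.05. The others had medians of 0.94 to 1.22 and SDs of 0.28 to 0.91. No scaling was applied to the reported values, so such array-wide shifts remain in them. A ratio of 0 or below has no log2 and was treated as missing, which removed 3 values of Il1b, 2 of Nfkbia and 2 of Icam1. For 1 array, that of treated BL10 hindlimb at 9 weeks, the title says BL10 and both channels say mdx; the title decided its group.

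**Figure D1:**
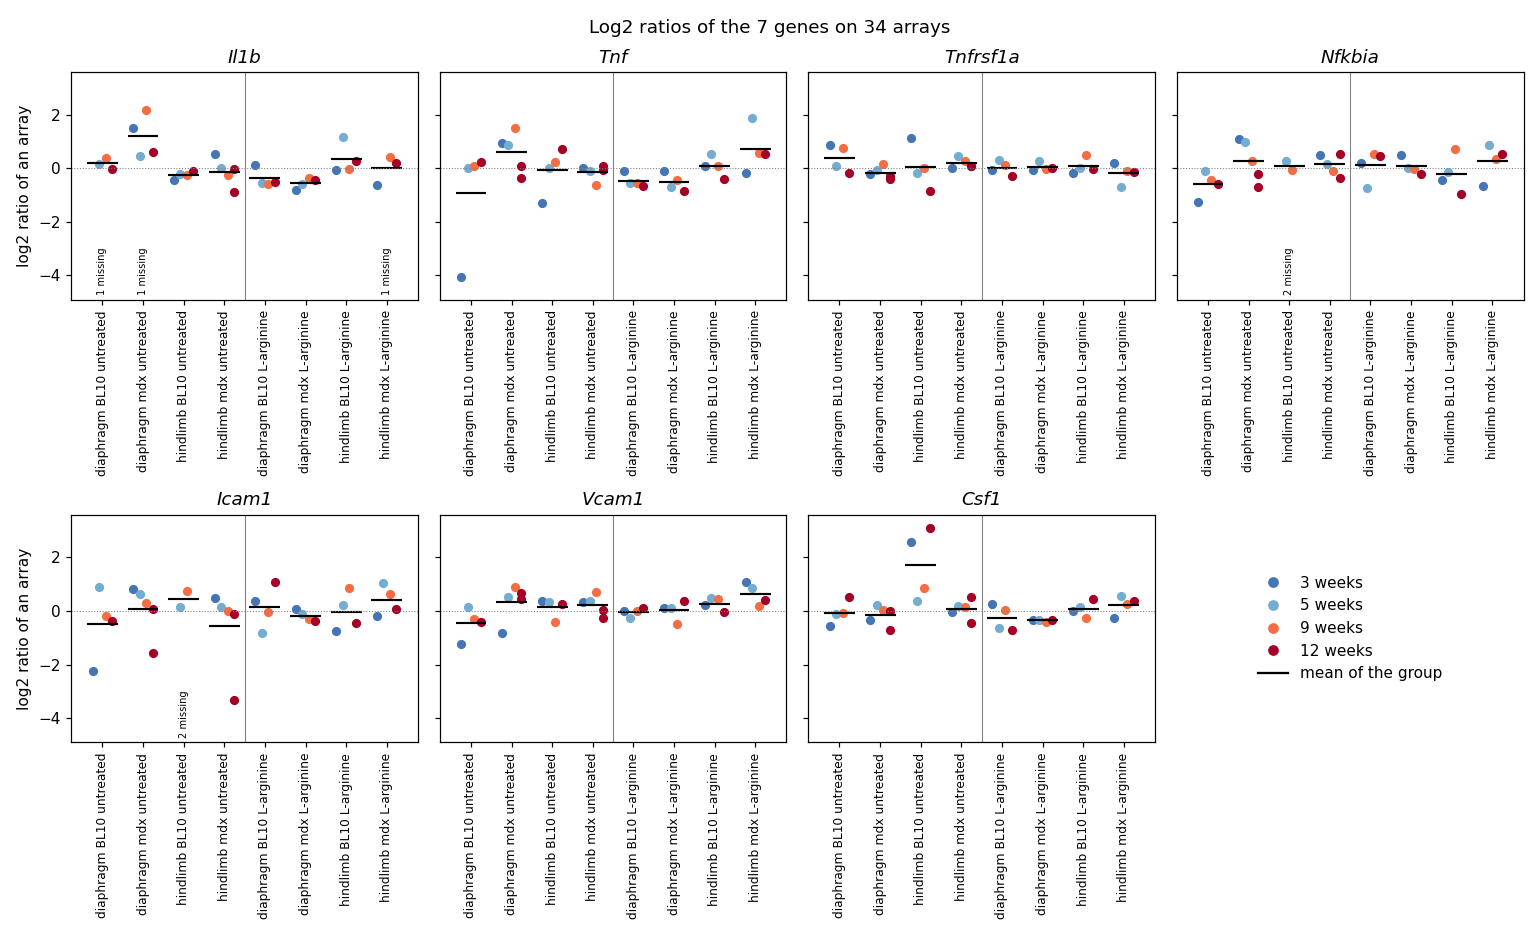
Log2 ratio of each of the 7 genes on each array (points, by age) in the 8 groups; the horizontal mark is the group mean, and arrays with a ratio of 0 or below have no point. The Il1b points of untreated mdx diaphragm lie above 0, those of treated mdx diaphragm below 0, and 2 of the 4 Csf1 points of untreated BL10 hindlimb lie far above the rest.

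In untreated diaphragm the fitted difference, mdx minus BL10, was above 0 for 5 of the 7 genes. Over all 1014 genes and probes 67.5% were above 0. The 4 largest differences among the 7 were those of Tnf, Nfkbia, Il1b and Vcam1. None of the 7 passed limma at an adjusted p of 0.05, nor did any of the 1014 genes and probes tested (0% called), while 4 of the 7 and 100 of the 1014 had an unadjusted p under 0.05. The median difference of the 7 genes was 0.78, and that of all 1014 was 0.16. Macrophage markers had values in the same direction: 4 of the 5 measured markers of a list of 17 (Lyz2, C1qb, Mpeg1, Gpnmb and, below 0, Cd68) had a difference above 0, with a median of 0.40. The array means of those markers ran from -0.43 to 0.13 in BL10 diaphragm and from -0.25 to 1.10 in mdx diaphragm. In untreated hindlimb 4 of the 5 markers were also above 0, with a median of 0.46, where that of the 7 genes was 0.097. In diaphragm with L-arginine all 5 were above 0, with a median of 0.53, where that of the 7 genes was -0.062. The part of these markers in the differences of the 7 genes was not tested.

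Il1b had ratios of 2.85, 1.38 and 4.54 in untreated mdx diaphragm at 3, 5 and 9 weeks. At 12 weeks it had 1.53 on Sample 2 and a negative value, -0.51, on Sample 1. In untreated BL10 diaphragm the ratios were -1.42, 1.13, 1.32 and 0.99 at 3, 5, 9 and 12 weeks. All 4 positive mdx ratios exceeded the 3 positive BL10 ratios, a separation in either direction that 3.17% of genes showed; of the 7 genes, Il1b alone had it here. The mean log2 ratio was 1.19 ± 0.81 (SD, 4 values) in mdx and 0.19 ± 0.21 (SD, 3 values) in BL10. The fitted difference was 0.93 ± 0.38 (SE; limma adjusted p = 0.420). Without the mdx array at 9 weeks it was 0.55.

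Tnf had ratios of 1.93, 1.84 and 2.83 at 3, 5 and 9 weeks in untreated mdx diaphragm, and 1.06 and 0.78 on Sample 1 and Sample 2 at 12 weeks. In BL10 they were 0.06, 1.00, 1.07 and 1.17. The mdx arrays before 12 weeks were all above the BL10 arrays, those at 12 weeks were not, and the BL10 array at 3 weeks stood far below all others. The difference was 1.52 ± 0.64 (SE; limma adjusted p = 0.420). Without that BL10 array, 1 of the 3 that stood apart, it was 0.59, and without the arrays of 12 weeks it was 2.43. Tnfrsf1a, its receptor, was among the 2 genes with a difference below 0 (-0.46 ± 0.28). Its ratios were 0.75 to 1.11 in mdx and 0.88 to 1.81 in BL10, and the groups overlapped.

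Nfkbia had ratios of 2.13, 1.98 and 1.20 in untreated mdx diaphragm at 3, 5 and 9 weeks and 0.62 and 0.87 at 12 weeks. In BL10 it had 0.42, 0.94, 0.73 and 0.66. The groups overlapped through the 12-week mdx arrays. The difference was 0.96 ± 0.36 (SE; limma adjusted p = 0.416), and 0.60 without the BL10 array at 3 weeks. Vcam1 ran from 0.57 to 1.85 in mdx and from 0.43 to 1.12 in BL10, with a difference of 0.78 ± 0.33 (limma adjusted p = 0.420). It was 0.31 once a running median over 51 neighbouring probes was subtracted from each array. Icam1, the other adhesion molecule, had a difference of 0.73 ± 0.73, which ran from -0.055 to 1.24 with 1 array left out at a time. Csf1 had a difference of -0.16 ± 0.46, and in both genes the error was as large as the difference or larger.

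In untreated hindlimb the strain differences of 6 of the 7 genes lay between -0.34 and 0.26, and that of Csf1 stood apart at -1.72. None of the 7 passed the test, and 0.0986% of the 1014 genes and probes did. Of the 7 only Csf1 had an unadjusted p under 0.05, as had 120 of the 1014. The medians were 0.097 for the 7 genes and 0.15 for all. Csf1 had ratios of 6.02, 1.29, 1.83 and 8.68 at 3, 5, 9 and 12 weeks in BL10. In mdx it had 0.98, 1.14 and 1.11 at 3, 5 and 9 weeks and 0.74 and 1.42 at 12 weeks. The BL10 arrays at 3 and 12 weeks, both of which stood apart, held the 2 high ratios. The groups overlapped in all 5 genes with at least 3 values in each, where 3.49% of genes had groups that did not. The difference was -1.72 ± 0.46 (SE; limma adjusted p = 0.237), and -0.47 without the 3 arrays that stood apart. For the same 12-week array both channels carry the label BL10 at 12 weeks.

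Among the other genes in untreated mdx hindlimb, the lowest ratio was 0.10 for Icam1 on Sample 2 and the highest 1.63 for Vcam1 at 9 weeks. Il1b had 1.43, 1.02 and 0.83 at 3, 5 and 9 weeks there, and 0.54 and 0.98 at 12 weeks, against 0.73, 0.86, 0.84 and 0.94 in BL10. The Il1b groups overlapped, with a difference of 0.18 ± 0.34. Nfkbia and Icam1 had a positive ratio on only 2 of 4 BL10 hindlimb arrays, so their differences (0.26 ± 0.47 and -0.34 ± 0.94) rest on few values. With ratios of 0 or below set to the lowest positive ratio of their array they were 3.33 and 2.53, so that of Icam1 turned sign. Whether the strain difference itself differed between muscles was tested: none of the 7 passed (0% called over all). The values, hindlimb minus diaphragm, ran from -1.60 for Tnf to 0.70 for Tnfrsf1a. An unadjusted p under 0.05 was held by 45 of 1014 genes and probes and by 1 of the 7. That gene was Csf1 with -1.55 ± 0.65 (limma adjusted p = 0.813). That Csf1 value was -0.24 without the 3 arrays that stood apart.

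In mice given L-arginine the strain differences of the 7 genes were small in diaphragm and mixed in hindlimb. In diaphragm they ran from -0.33 for Icam1 to 0.071 for Vcam1, and none passed (0% called over 1019 genes and probes). An unadjusted p under 0.05 was found for 0 of the 7 and 27 of the 1019. In hindlimb they ran from -0.27 for Tnfrsf1a to 0.63 for Tnf, and none passed (0.393% called; 0 of the 7 had an unadjusted p under 0.05). The medians of the 7 genes were -0.062 and 0.36, and those of all 1019 were 0.0045 and 0.080. In no gene were the groups apart, where 5.71% of genes in diaphragm and 6.25% in hindlimb had groups that did not overlap. The test of strain by muscle called none of the 7 (0% over all), with an unadjusted p under 0.05 in 0 of the 7 and 66 of the 1019.

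Among macrophage markers on the same L-arginine arrays, all 5 were above 0 in mdx hindlimb against BL10, with a median difference of 1.00, and Lyz2, which encodes lysozyme, passed the test (1.97 ± 0.28 SE, limma adjusted p = 0.00699). The Lyz2 call was kept in 27 of 31 alternatives: quantile normalisation (adjusted p = 0.208), equal spread of the arrays (0.0846), leaving out the 12-week arrays (0.0934) and leaving out the treated mdx hindlimb array at 9 weeks (0.0512) ended it. Array means of the 5 markers ran from 0.86 to 1.14 in treated mdx hindlimb and from -0.39 to 0.29 in treated BL10 hindlimb. The latter group holds the 9-week array whose channels both say mdx. The difference of Csf1 in the same comparison was 0.16 ± 0.27, that of Il1b -0.26 ± 0.32.

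**Figure D2:**
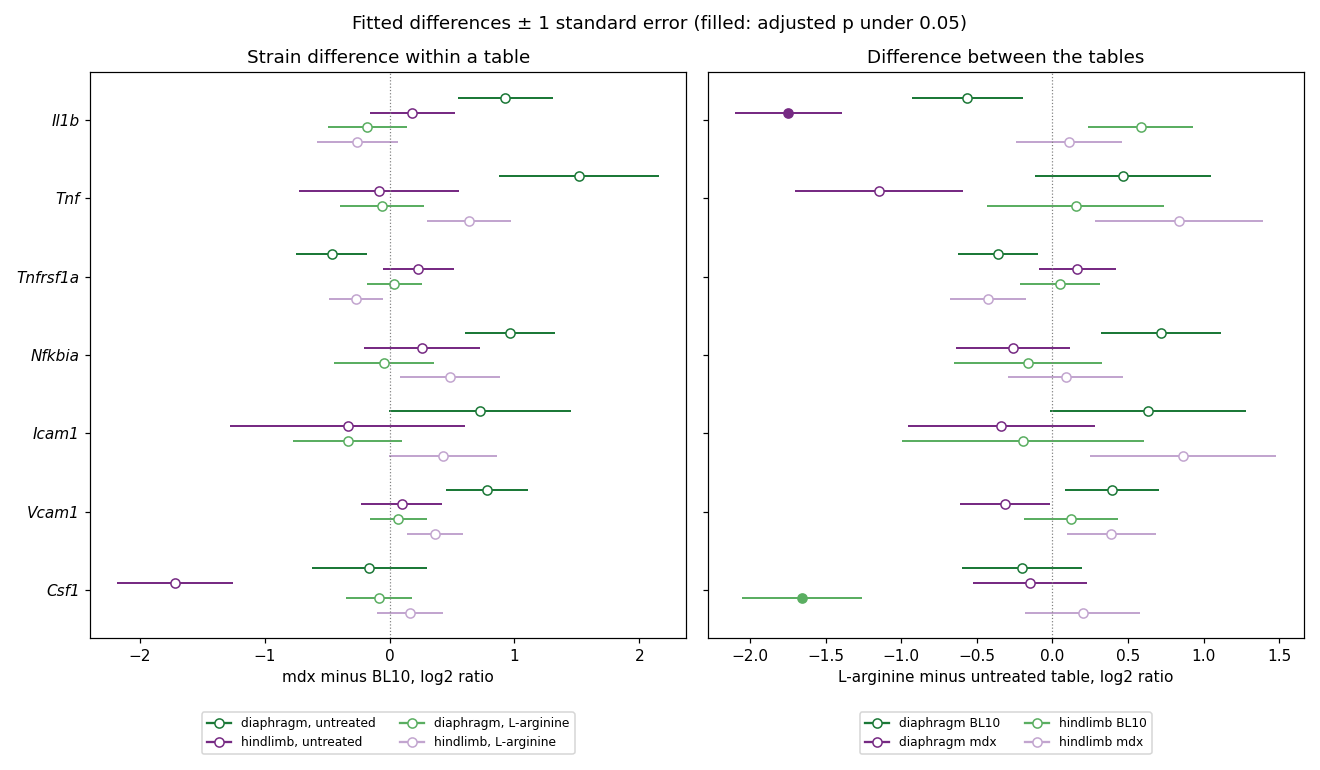
Fitted differences in log2 ratio ± 1 standard error for each gene: mdx minus BL10 within a table (left) and the L-arginine minus the untreated table (right), for the groups in the colour key; filled points have a limma adjusted p under 0.05. The filled points are Il1b in mdx diaphragm (-1.75) and Csf1 in BL10 hindlimb (-1.66), both between tables.

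Between the tables, 1 of the 7 genes was called in mdx diaphragm, Il1b, where 0.633% of 632 genes were called. In treated mdx diaphragm its ratios were 0.57, 0.66, 0.78 and 0.73 at 3, 5, 9 and 12 weeks, all below 1, while the 4 positive untreated ratios given above were all at or above 1.38. These groups did not overlap, as in 4.75% of genes. The Il1b difference in log2 ratio was -1.75 ± 0.35 (SE), 3.36-fold lower on the L-arginine arrays (limma adjusted p = 0.0141), and its p was the second smallest of 632. The untreated mdx diaphragm arrays in this difference also gave the strain difference above. The call was lost without the untreated array at 3 weeks (-1.62, adjusted p = 0.0615), without that at 9 weeks (-1.42, adjusted p = 0.0791) and without the treated array at 5 weeks (-1.73, adjusted p = 0.0599). It was also lost with ratios of 0 or below set to the lowest positive ratio of their array (-0.55, adjusted p = 0.996), which brings in Sample 1 at 12 weeks as a low value.

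Tnf came next to Il1b in mdx diaphragm. Its treated ratios were 0.93, 0.61, 0.74 and 0.55, all below the 5 untreated ones except that the first exceeded Sample 2 at 12 weeks (0.78). The Tnf difference was -1.15 ± 0.56 (SE; limma adjusted p = 0.411). For the other 5 genes the differences ran from -0.34 for Icam1 to 0.16 for Tnfrsf1a, and the medians were -0.31 for the 7 genes and -0.059 for all 632. The macrophage markers had a median of 0.39 in this comparison, with 3 of 5 above 0 and the rest below. None of these markers passed the test. Over all 632 genes 43.7% were above 0. The part of the macrophage markers in the Il1b difference was not tested.

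In BL10 hindlimb 1 of the 7 was called, Csf1, where 4.27% of 632 genes were called. Its treated ratios were 1.00, 1.10, 0.83 and 1.36 at 3, 5, 9 and 12 weeks, against the untreated 6.02, 1.29, 1.83 and 8.68. The treated array at 9 weeks is the one whose channels both say mdx. The groups overlapped, and the high values were those of the 2 untreated arrays that stood apart. The Csf1 difference was -1.66 ± 0.40 (SE), 3.16-fold lower on the L-arginine arrays (limma adjusted p = 0.0159). Without the 3 arrays that stood apart the difference was -0.52 (adjusted p = 0.742). It was -1.34 (adjusted p = 0.0957) without the 3-week and -1.21 (adjusted p = 0.0761) without the 12-week array of untreated BL10 hindlimb. Il1b differed the other way there: its treated ratios of 0.95, 2.24, 0.98 and 1.20 all exceeded the untreated ones, none above 0.94, a separation that 8.36% of genes had. The Il1b difference of 0.58 ± 0.35 did not pass the test (limma adjusted p = 0.347), and was 0.26 without the treated array at 5 weeks.

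In BL10 diaphragm none of the 7 passed between tables (0% called), with 0 of the 7 and 49 of 632 genes at an unadjusted p under 0.05. The differences of the 7 ran from -0.56 for Il1b to 0.72 for Nfkbia. That of Il1b turned to 1.14 with ratios of 0 or below at the lowest positive ratio. Il1b had 1.10, 0.68, 0.66 and 0.71 on the treated BL10 arrays, so 3 of 4 lay below the positive untreated ones. The groups overlapped in all 7 genes, where 10.9% of genes had groups that did not. In mdx hindlimb none of the 7 passed (3.01% called), with 0 of the 7 and 118 of 632 genes at an unadjusted p under 0.05. The differences of the 7 ran from -0.43 for Tnfrsf1a to 0.86 for Icam1. That of Icam1 was 0.27 without untreated Sample 2. There the treated Tnf ratios were 0.88, 3.69, 1.50 and 1.46, and the untreated ones 1.01, 0.94, 0.65, 1.05 and 0.96. The groups overlapped in all 7 genes (10.2% of genes had groups that did not). For Tnf 3 of 4 treated arrays lay above all untreated ones, and the difference was 0.84 ± 0.56 (limma adjusted p = 0.431), or 0.52 without the treated array at 5 weeks. That array, which held the highest Tnf ratio there, had the highest median ratio of all 34, 1.22.

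**Figure D3:**
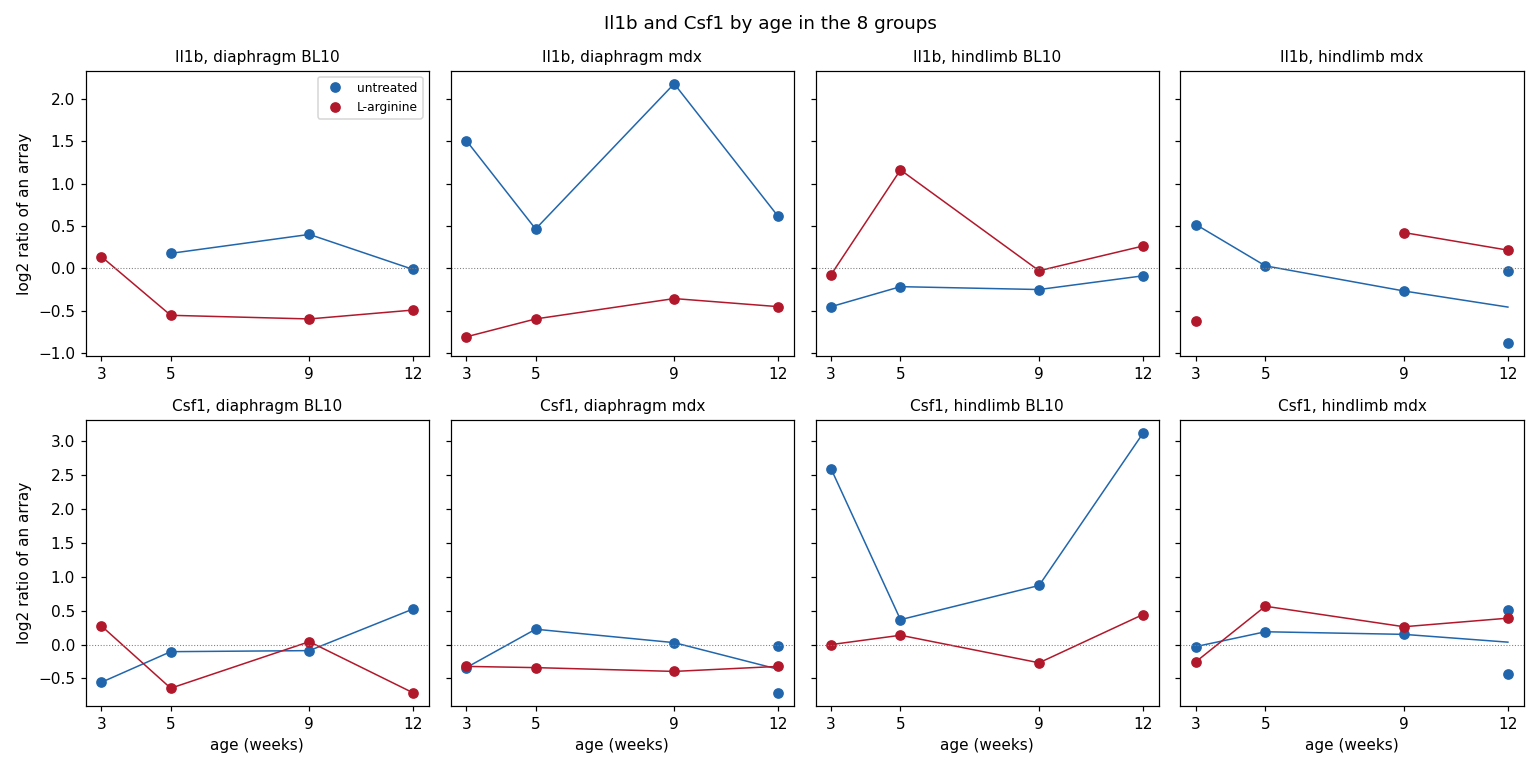
Log2 ratio of Il1b and Csf1 by age in weeks for each muscle and strain, untreated and L-arginine (points are arrays, lines join the mean of each age and break where there is no positive ratio). In mdx diaphragm the untreated Il1b points lie above the L-arginine points at every age, and in BL10 hindlimb the untreated Csf1 points are highest at 3 and 12 weeks.

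The difference between tables was then compared between muscles and between strains. By muscle, diaphragm minus hindlimb over both strains, 1 of the 7 was called, Il1b, where 1.11% of 632 genes were called. The value was -1.50 ± 0.35 (SE; limma adjusted p = 0.0397). Its parts were differences of -0.56 and -1.75 in BL10 and mdx diaphragm and 0.58 and 0.11 in BL10 and mdx hindlimb. Over the other settings and left-out arrays the call was kept in 22 of 49, and the value was 0.44 with ratios of 0 or below set to the lowest positive ratio. By strain none of the 7 passed (0% called). An unadjusted p under 0.05 was held by 58 of 632 genes and by 2 of the 7. These were Il1b (-0.83 ± 0.36) and Csf1 (0.96 ± 0.39), both with a limma adjusted p of 0.509. Csf1 had 0.43 without the 3 arrays that stood apart, and Il1b had -1.57 with the lowest positive ratio.

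Within tables, Il1b had differences of opposite sign as reported. Hindlimb minus diaphragm over both strains was -0.89 ± 0.25 (limma adjusted p = 0.402) untreated and 0.67 ± 0.23 (adjusted p = 0.104) with L-arginine. With ratios of 0 or below set to the lowest positive ratio both were above 0, at 0.60 and 0.15. None of the 7 passed in either table, where 0% and 4.02% of genes and probes were called. An unadjusted p under 0.05 was held by 2 and 4 of the 7, and by 104 of 1014 and 247 of 1019 genes and probes. Over all genes and probes 34.3% untreated and 63.6% with L-arginine were above 0. Csf1 was positive in both, 1.02 ± 0.32 untreated (0.36 without the 3 arrays that stood apart) and 0.46 ± 0.19 with L-arginine. On the L-arginine arrays, Tnf had 0.89 ± 0.24 (limma adjusted p = 0.0638) and Vcam1 0.46 ± 0.16 (adjusted p = 0.105). The 8 treated diaphragm ratios of Tnf were 0.55 to 0.94 and the 8 treated hindlimb ratios 0.76 to 3.69, and only 2 hindlimb arrays, BL10 at 12 weeks (0.76) and mdx at 3 weeks (0.88), lay within the diaphragm range. Tnf passed in 5 of 31 other settings or left-out arrays. Among them was quantile normalisation (0.72, adjusted p = 0.0383). Another left out the treated mdx hindlimb array at 3 weeks (1.08, adjusted p = 0.0207). With a running median over neighbouring probes subtracted from each L-arginine array, Tnf was 0.54 (limma adjusted p = 0.178). Il1b was then 0.21 (adjusted p = 0.512) and Csf1 0.23 (adjusted p = 0.385). Vcam1 fell to 0.27 with quantile normalisation (adjusted p = 0.333). Over the alternatives Il1b passed in 2 of 30, and Vcam1 and Csf1 in 0 of 31 each.

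By group mean, the order of the Il1b log2 ratios ran from untreated mdx diaphragm (1.19), through treated BL10 hindlimb (0.33 ± 0.57), untreated BL10 diaphragm (0.19), treated mdx hindlimb (0.0050 ± 0.55), untreated mdx hindlimb (-0.13 ± 0.51), untreated BL10 hindlimb (-0.25 ± 0.15) and treated BL10 diaphragm (-0.38 ± 0.35), to treated mdx diaphragm (-0.56 ± 0.20; errors are SD). Neighbours from the second place on differed by less than their SD. The step from first to second place was just above the SD of the first, 0.81. Tnf was highest in treated mdx hindlimb (0.71 ± 0.86) and untreated mdx diaphragm (0.61 ± 0.74) and lowest in untreated BL10 diaphragm (-0.93 ± 2.09), where the SD comes from the array at 3 weeks. Csf1 was highest in untreated BL10 hindlimb (1.74 ± 1.32), and its other 7 groups lay from -0.34 to 0.24.

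Age gave no call among the 7 genes. Against 12 weeks, none passed at 3, 5 or 9 weeks in the untreated table (0% called at each age) or in the L-arginine table (0% called at each age). The count with an unadjusted p under 0.05 was 1 of the 7 at 3 weeks untreated, and 82 of all 1014 genes and probes. In the other 5 comparisons it was 0 of the 7, and 26 to 95 of all genes and probes. The 1 gene was Tnfrsf1a with 0.69 ± 0.27 (limma adjusted p = 0.535). Its untreated ratios at 3 weeks were 1.81 and 2.20 in BL10 diaphragm and hindlimb and 0.87 and 1.01 in mdx. Both high values came from arrays that stood apart, and the difference was 0.076 without the 3 such arrays. With L-arginine its ratios at 3 weeks were 0.89 to 1.15.

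The 12-week arrays carry the same strain and age label in both channels. Their ratios therefore show how far a value moved where the labels name no contrast. Such arrays are in every group, so the reported strain differences average over them too. Over these 10 arrays the SD of the log2 ratio was 0.45 for Il1b, 0.51 for Tnf, 0.28 for Tnfrsf1a, 0.56 for Nfkbia and 0.33 for Vcam1, below the SD over the arrays of other ages (0.75, 1.10, 0.39, 0.58 and 0.54). For Icam1 (1.25 against 0.72) and Csf1 (1.11 against 0.64) it was above it. The Icam1 spread holds ratios of 0.10 and 0.34 on Sample 2 of mdx hindlimb and diaphragm and 2.12 in treated BL10 diaphragm. The median over 632 genes was 0.47 at 12 weeks and 0.49 at other ages. Whether treated 12-week arrays used treated RNA in both channels is not given in the labels.

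Icam1 and Vcam1, given together as the adhesion molecules, passed in no comparison. Untreated diaphragm had Icam1 ratios, by age, of 0.21, 1.86, 0.87 and 0.78 in BL10 mice and of 1.79, 1.57, 1.24, 1.06 and 0.34 in mdx mice. With L-arginine they were 1.31, 0.57, 0.97 and 2.12 in BL10 and 1.06, 0.92, 0.81 and 0.77 in mdx diaphragm. The low values were single arrays, at 3 weeks in BL10 and on Sample 2 in mdx. Vcam1 was highest as a group in treated mdx hindlimb, with 2.12, 1.81, 1.13 and 1.34, all above 1. Its untreated mdx hindlimb ratios were 0.84 to 1.63, and the groups overlapped (difference 0.39 ± 0.30, limma adjusted p = 0.508; -0.089 with quantile normalisation).

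Across arrays, Il1b and Tnf varied together. After subtraction of each table's mean, Pearson's r of their log2 ratios was 0.66 and Spearman's rho 0.52 over the 31 arrays with both values. It was 0.68 within the untreated and 0.73 within the L-arginine table, 0.51 without the 2 arrays farthest from the median in Il1b, and 0.39 once group means were subtracted. Their probes lay 299 and 400 places apart in the tables. Tnf and Tnfrsf1a ran opposite ways (r = -0.59 over 34 arrays, -0.50 with group means subtracted). Without the 2 arrays farthest from the median in Tnf, that r was -0.44. Tnf had r of 0.57 with Nfkbia and 0.54 with Icam1, and Nfkbia had 0.45 with Icam1 (32 arrays each). Without the 2 arrays farthest from the median in the first gene of each pair, these were 0.38, 0.34 and 0.29. The Nfkbia and Icam1 probes lay only 5 and 7 places apart, and their r was 0.32 untreated and 0.79 with L-arginine. These values describe arrays that share groups, ages and array-wide shifts, and 1 table order of probes.

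**Figure D4:**
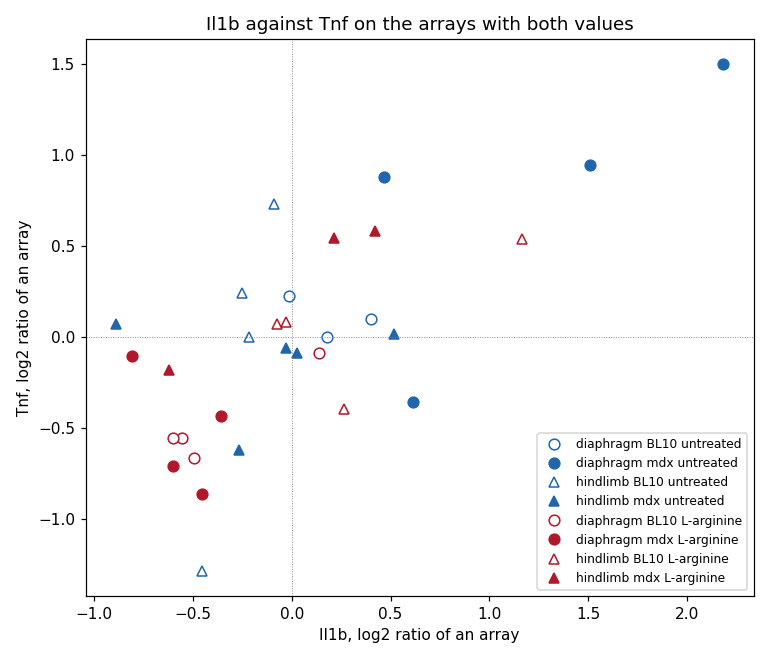
Log2 ratio of Tnf against that of Il1b on the 31 arrays with a positive ratio of both; colour gives the table, shape the muscle and filled marks mdx, and dotted lines mark a log2 ratio of 0. Of the 4 untreated mdx diaphragm arrays shown, 3 lie in the upper right, and most treated diaphragm arrays lie toward the lower left.

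For each gene the 2 genes with the highest r over at least 30 arrays were named, as a description. For Tnf they were Lpcat1 (0.92) and Dcaf10 (0.84), and for Il1b Kcns1 (0.78) and Arsk (0.74). Dcaf10 was also first for Nfkbia (0.73), followed by Desi2 (0.68). The Dcaf10 probe lay 8 places from Tnf in the untreated table and 7 from Nfkbia in the L-arginine table. The Desi2 probe lay 28 and 29 places from that of Nfkbia. For Csf1 they were Bnip3l (0.88) and Ercc5 (0.81), for Tnfrsf1a Ambra1 (0.72) and Aldh2 (0.59). Icam1 was closest to Cxcl13 (0.79), a chemokine gene whose probe lay 24 and 32 places away in the untreated and L-arginine tables, and Exoc3 (0.72). Vcam1 was closest to the macrophage marker Gpnmb (0.72) and to Copg2 (0.71). Arrays that stood apart were kept in these r values, and none was computed without them.

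The wider pathway was read from a list of 168 genes, of which 20 were measured untreated and 19 with L-arginine; no further ligand or receptor of the IL-1 and TNF families was among them. In none of the comparisons did a gene of the list pass in either direction. In untreated diaphragm 16 of 20 were above 0 in mdx minus BL10, with a median of 0.21 (all genes and probes 0.16, with 67.5% above 0). In untreated hindlimb it was 12 of 20, with a median of 0.17 against 0.15. The 7 measured signalling genes were Rela (a subunit of NF-kB), the kinases Ikbkb, Map3k7 and Map3k14, the inhibitor Nfkbib, the related Bcl3 and the brake Tnfaip3. Of them 6 were above 0 in untreated diaphragm and 0 in untreated hindlimb, with medians of 0.23 and -0.25. Of the 6 NF-kB and inflammatory targets 5 and 6 were above 0 (medians 0.33 and 0.53), of the 3 adhesion genes 2 and 3, and of the 4 other cytokine and receptor genes 3 and 3. The test of strain by muscle called none of them.

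Among the signalling genes, Bcl3 had 1.31 ± 0.56 (limma adjusted p = 0.420; 0.37 without the BL10 array at 3 weeks) in untreated mdx diaphragm against BL10. The kinase subunit Ikbkb had -0.96 there, which turned to 0.75 with the lowest positive ratio. Tnfaip3 had -0.43 ± 0.18 in treated diaphragm. Of the NF-kB and inflammatory targets, Fos, an immediate early gene, had the smallest unadjusted p: its difference in untreated hindlimb was 1.23 ± 0.27 (limma adjusted p = 0.183). The inducible nitric oxide synthase Nos2, which uses L-arginine as its substrate and is named for that reason, had strain differences of 0.54 and 0.25 in untreated and 0.17 and -0.58 in treated diaphragm and hindlimb. The last was 0.051 without the treated mdx hindlimb array at 3 weeks. Over the alternatives the Nos2 difference in treated diaphragm ran from -0.39 to 0.53. In untreated diaphragm it ran from 0.14 to 2.16, and in untreated hindlimb from -0.069 to 1.73. In the adhesion list Pecam1, an endothelial marker, had -1.43 ± 0.57 in treated hindlimb (limma adjusted p = 0.226), and -0.57 without the treated BL10 array at 12 weeks. On the L-arginine arrays 18 of 19 list genes were above 0 in hindlimb minus diaphragm, with a median of 0.39, where 63.6% of all genes and probes were above 0 with a median of 0.13.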

How the data were processed

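The submitters deposited 2 tables of 1200 probes, 1 for 18 untreated and 1 for 16 L-arginine arrays. From the values (medians near 1, some negative), the deposited values were taken to be linear channel ratios. Scanner, background correction, normalisation, dyes and centring are not stated in the labels used here. Arrays give no read depth, so their number limits the precision. By the platform annotation 812 probes per table had 1 symbol, 99 had several and were not named. Positive ratios were turned into log2, ratios of 0 or below became missing, and probes of a gene were averaged. Rows (genes and probes) present on 75% or more of a table's arrays were tested in R 4.3.3 by limma 3.58.1, using lmFit and eBayes with group and age as terms and a Benjamini-Hochberg threshold of 0.05: 1014 untreated and 1019 L-arginine genes and probes within tables, and 632 genes over both tables together. All groups of a fit share 1 estimate of spread. The tests were run first on simulated data. No scaling was applied to the reported values. Promoters came from RefSeq and figures from Python 3.11.15. The 7 genes, the lists and the tests were chosen with earlier results of these data known. The text names all 7 genes, up to 3 genes with the smallest p of each pathway list, and the 2 genes most alike to each of the 7; Nos2 was added after its values were seen. The alternatives were other scalings, filters, treatments of missing values, age and array terms, and leaving out each array; leaving out the 3 arrays that stood apart and a term for Sample 2 were added after seeing the data.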

Additional observations from a re-analysis of the deposited data

Results flagged for a closer look

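Of 52 sets of values of a gene in a group, 6 held an array whose gap to its nearest neighbour was a large share of the whole range, beyond Dixon's 95% limit, and 4 further sets had fewer than 4 values. Chance flags about 1 in 20 sets. For Tnf, the array of untreated BL10 diaphragm at 3 weeks lay at -4.06 in log2 ratio, and that of untreated mdx hindlimb at 9 weeks at -0.62. For Icam1, Sample 2 of untreated mdx hindlimb at 12 weeks lay at -3.32. For Vcam1, untreated mdx diaphragm at 3 weeks lay at -0.81 and untreated BL10 hindlimb at 9 weeks at -0.40. For Il1b, treated BL10 diaphragm at 3 weeks lay at 0.14, above the other 3 ages. The difference of Il1b between tables differed between the muscles, diaphragm minus hindlimb, by -1.50 in the limma test of that difference.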

How the results depend on the processing

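The 20 counts of called members and the 140 differences of members were recomputed under each alternative. In hindlimb minus diaphragm with L-arginine the count went from 0 to 1 with quantile normalisation, equal spread and a value on every array, to 2 with array weights, and to 0 to 1 with 1 array left out. In mdx diaphragm between tables the count of 1 went to 0 with a value on every array (Il1b then was not tested), ratios of 0 or below at the lowest positive ratio, log2(ratio + 0.1) and only the compared groups in the fit (adjusted p = 0.135), and to 0 to 1 with 1 array left out. In BL10 hindlimb between tables the count of 1 went to 2 with the lowest positive ratio, to 0 with only the compared groups, without 12-week arrays, with array weights and without the 3 arrays that stood apart, and to 0 to 1 with 1 array left out. By muscle between tables the count of 1 went to 0 with centring, quantile normalisation, a value on every array, the lowest positive ratio, log2(ratio + 0.1), removal of the print-order trend, without 12-week arrays and without the 3 arrays, to 2 with array weights, and to 0 to 1 with 1 array left out. The cause was not tested. The Il1b call in mdx diaphragm was kept in 44 of 50 alternatives and the Csf1 call in BL10 hindlimb in 45 of 51. For each gene 34 of these left out 1 array, in most cases of a group outside the comparison, which could change the call little. Among these 34 the Il1b call was kept in 31 and the Csf1 call in 32. The calls lost there came from arrays of the groups compared. The sign of Il1b turned in hindlimb minus diaphragm untreated (0.60 with the lowest positive ratio, 0.096 with log2(ratio + 0.1)) and by muscle between tables (0.44 with the lowest positive ratio). Of the 121 differences with an unadjusted p of 0.05 or more, 78 turned sign and 121 moved by over 1.5 times in at least 1 alternative. Counts over all genes moved too: from 4 to between 0 and 25 in mdx diaphragm between tables, from 27 to 0 to 79 in BL10 hindlimb, from 19 to 0 to 75 in mdx hindlimb, from 0 to 0 to 25 in BL10 diaphragm, from 7 to 0 to 42 by muscle, from 41 to 9 to 103 in hindlimb minus diaphragm with L-arginine, from 4 to 0 to 21 and from 1 to 0 to 6 for strain in treated and untreated hindlimb, and from 0 to at most 7 elsewhere. Arrays of the groups are matched by age, and age was a term of the fit. The only replicate numbers in the labels are Sample 1 and Sample 2 of untreated mdx diaphragm and hindlimb at 12 weeks. The difference between Sample 1 and Sample 2 correlated between the muscles with r = 0.25 over 998 genes and probes. A replicate block that gave Sample 2 a term of its own, added after seeing the data, left all 13 counts of called members it could be fitted to as they were, with Il1b at -1.80 in mdx diaphragm between tables (adjusted p = 0.0205).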
